A study of Mus musculus with 6 samples.

Results

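The genes of DNA replication and nucleotide supply are those that load and fire replication origins, copy the strands, package the copies and make the deoxynucleotides. The 51 genes described here were chosen by symbol, from textbook roles, out of the 22966 genes of the count table, and fall into 11 role groups. The choice was made with earlier results of these data known, so shares set beside those of all genes are descriptions. RNA sequencing was done on 6 libraries of mouse primary hepatic stellate cells, the liver pericytes that store vitamin A and become collagen-producing myofibroblasts after injury, with 3 libraries titled Cre and 3 titled flox. All 6 libraries carry the same genotype entry, BucheHep, and the same CCl4 treatment entry, the liver toxin carbon tetrachloride, which leaves the titles as the only label that separates the groups. The series concerns mice without butyrylcholinesterase (Bche, written Buche in the labels) in hepatocytes, fed chow, and asks how the enzyme bears on stellate cell activation through muscarinic signalling. The deletion is thus placed in another cell type than the one sequenced. The labels used here give neither the driver of the Cre, the age or number of mice, the meaning of the S2W in the titles, nor a sort of the cells. Nor do they tell whether each library is from its own animal, and the p-values reflect the spread between libraries, which may be technical.

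Before DNA is copied, the origin recognition complex with Cdc6 and Cdt1 loads the ring-shaped Mcm2 to Mcm7 helicase onto chromatin, a step called licensing. In S phase the helicase is switched on by Cdc45 and the GINS proteins, and polymerases alpha, delta and epsilon copy the strands with the Pcna clamp. Resting cells transcribe many of these genes little, and the E2F factors, held back by Rb and its relatives, are the best-known activators of the set when cells enter the cycle. In the liver, stellate cells divide little when resting and proliferate after injury.

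E2F factors bind GC-rich sites after a run of T, searched here as TTTCCCGC, TTTCGCGC, TTTGCCGC and TTTGGCGC on both strands of RefSeq windows (build GRCm38.p6) of 300 bases, with 250 before and 50 from the start site. Windows matched 42 of the 51 genes, and 16 of the 42 (38.1%) held such a match, against 575 of 17492 protein-coding genes (3.29%). The CCAAT box letters stood in 59.5% of the 42 genes and in 42.3% of protein-coding genes. TTTGAA or TTCGAA, forms of the cell cycle homology region of late cell cycle genes, stood in 16.7% and in 20.2%. Of the 22 E2F-type matches, 14 began within 100 bases of the start site, and some overlap each other. That stretch is a large part of the window, and the share of matches so placed over all genes was not computed. A match is a string of letters and was not tested for binding. The 5 windows below are cut to 280 bases, ending 30 bases into the transcript, and show 2 genes with large fold changes (Orc1, Clspn), 2 helicase genes with several matches (Mcm5, Mcm6) and Pold3, the gene that fell. Capitals mark the E2F-type letters.
Orc1, chr4:108579204-108579483 (+ strand, GRCm38.p6): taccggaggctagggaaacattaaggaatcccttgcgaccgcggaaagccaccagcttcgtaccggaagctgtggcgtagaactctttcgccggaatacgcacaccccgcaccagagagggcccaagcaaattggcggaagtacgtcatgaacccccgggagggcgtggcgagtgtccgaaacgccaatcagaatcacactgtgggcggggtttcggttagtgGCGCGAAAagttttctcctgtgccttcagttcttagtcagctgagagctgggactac
Clspn, chr4:126556730-126557009 (+ strand, GRCm38.p6): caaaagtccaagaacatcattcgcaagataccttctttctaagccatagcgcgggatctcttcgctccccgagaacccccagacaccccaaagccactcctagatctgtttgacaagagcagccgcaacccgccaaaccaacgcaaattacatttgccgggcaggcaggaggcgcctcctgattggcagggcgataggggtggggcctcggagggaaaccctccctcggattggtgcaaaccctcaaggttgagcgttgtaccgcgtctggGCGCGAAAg
Mcm5, chr8:75109259-75109538 (+ strand, GRCm38.p6): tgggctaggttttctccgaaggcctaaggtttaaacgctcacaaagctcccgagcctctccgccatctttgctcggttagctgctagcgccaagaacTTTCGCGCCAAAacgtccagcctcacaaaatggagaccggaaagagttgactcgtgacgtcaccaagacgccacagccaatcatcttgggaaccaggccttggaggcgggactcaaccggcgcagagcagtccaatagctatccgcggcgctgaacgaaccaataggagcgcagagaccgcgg
Mcm6, chr1:128359676-128359955 (- strand, GRCm38.p6): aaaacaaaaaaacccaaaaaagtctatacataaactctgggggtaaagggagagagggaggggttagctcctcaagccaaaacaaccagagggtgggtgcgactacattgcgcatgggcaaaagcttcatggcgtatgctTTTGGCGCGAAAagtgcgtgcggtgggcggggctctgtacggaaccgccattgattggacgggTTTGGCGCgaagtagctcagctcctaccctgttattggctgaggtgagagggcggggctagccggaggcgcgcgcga
Pold3, chr7:100121473-100121752 (- strand, GRCm38.p6): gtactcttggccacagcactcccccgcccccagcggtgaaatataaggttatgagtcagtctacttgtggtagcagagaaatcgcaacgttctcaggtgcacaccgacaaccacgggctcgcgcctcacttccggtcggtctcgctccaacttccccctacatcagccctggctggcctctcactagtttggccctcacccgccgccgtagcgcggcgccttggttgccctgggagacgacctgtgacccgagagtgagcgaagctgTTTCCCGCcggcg

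The match in Orc1 begins 27 bases before the start site, those of Clspn and Pold3 lie 22 and 18 bases into the transcript, and those of Mcm5, and 2 of the 3 of Mcm6, overlap in the sequence printed. Among the 26 matched genes that were higher in Cre, 12 (46.2%) held a match, against 3 of 15 (20.0%) that passed in neither direction, a difference described here and not tested. The 9 genes without a matched window were Mcm4, Pole, Gins2, Tipin, Gins1, Prim2, Rfc2, Gmnn and Gins4.

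**Figure D1:**
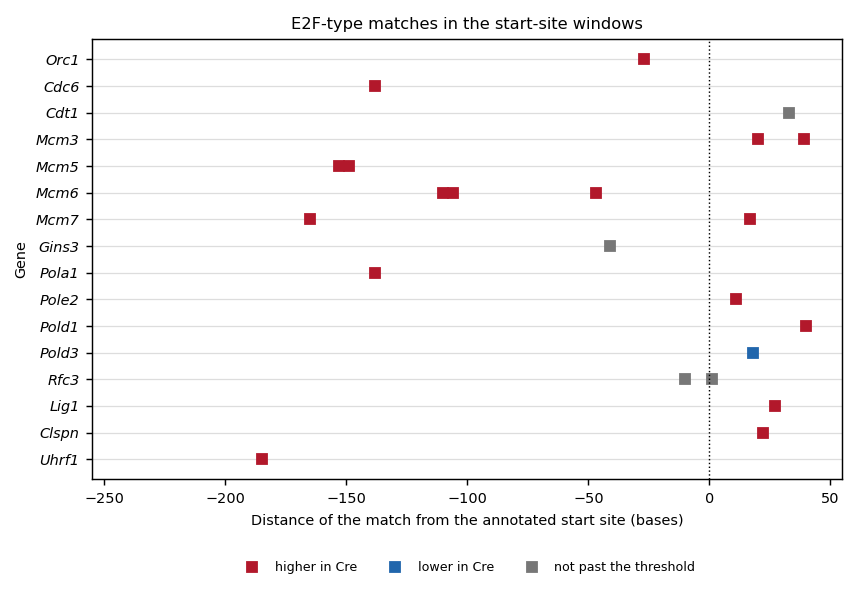
Position of each E2F-type match (squares) for the 16 genes that hold one, with the distance in bases from the annotated start site (0) on the x axis and the colour showing the expression call. Of the 22 matches, 14 lie within 100 bases of the start, and Pold3, lower in Cre, holds 1 beside 12 genes that were higher and 3 that passed in neither direction.

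Expression of the replication genes was higher in Cre than in flox libraries. All 51 passed the filter on low counts, the lowest count of any of them in a library being 75. At an adjusted p below 0.05, 30 of the 51 were higher in Cre, against 6.35% of all 14795 genes tested, and 1, Pold3, was lower, against 8.94% of all. The median log2 fold change of the 51, Cre over flox, was 0.92, against 0.01 over all genes, with a range of -0.36 to 1.995, and 50 of the 51 were positive. For 42 genes every Cre library lay above every flox library (19.6% of all genes), and for 1 every Cre library lay below (20.0% of all). At an unadjusted p below 0.05, 43 were higher (16.4% of all genes) and 1 lower (18.4% of all). The tests were edgeR quasi-likelihood tests adjusted by Benjamini-Hochberg over all genes, and the adjusted p of the 31 calls lay between 0.0237 and 0.0484. Leaving out Cre 1, Cre 2, flox 1 or flox 2 left 0 genes called of the 51 and of all genes in edgeR, with 37 to 41 of the 51 higher at an unadjusted p below 0.05 (10.7% to 12.5% of all genes) and 25 to 31 called higher by DESeq2 (5.11% to 6.84% of all). DESeq2 on all 6 libraries called 39 higher (10.6% of all genes) and limma-voom 25 (3.91% of all).

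**Figure D2:**
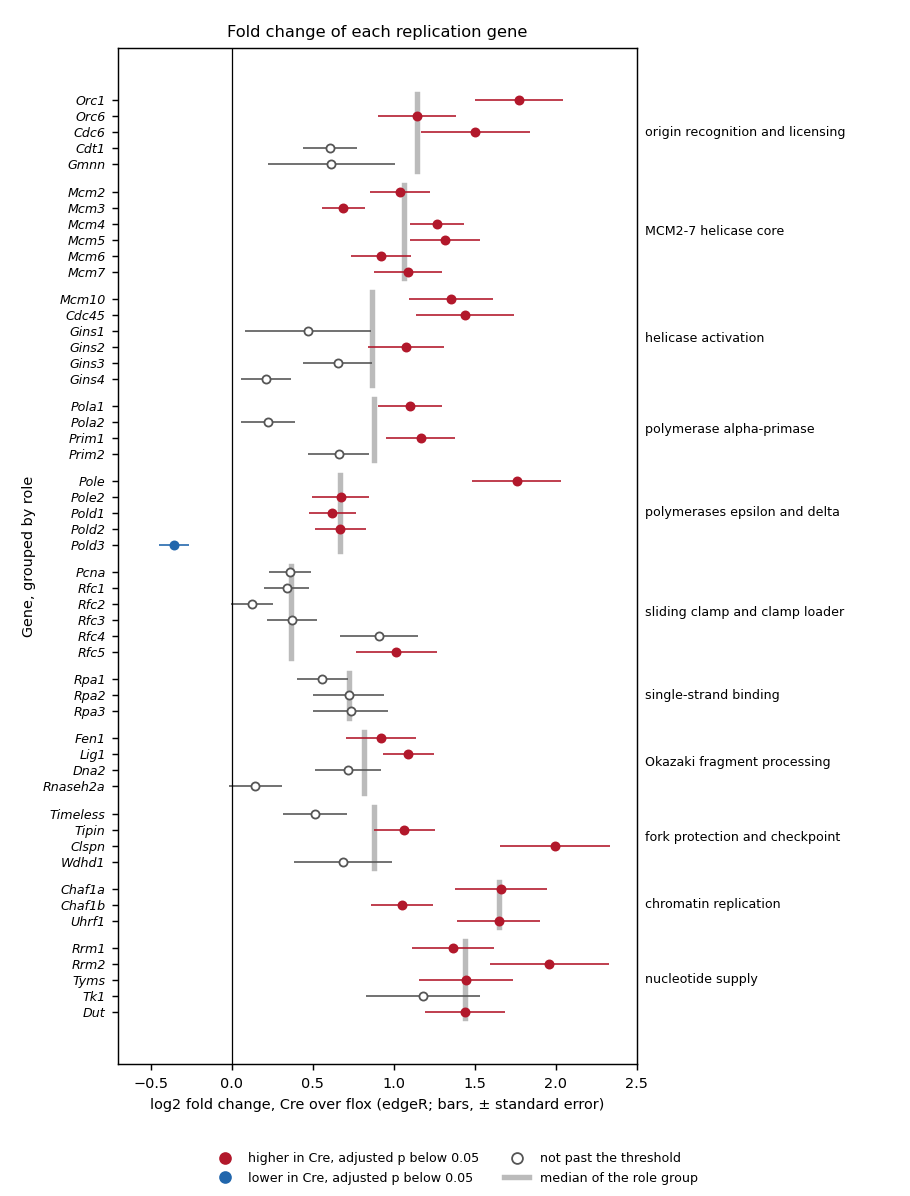
Log2 fold change of each of the 51 genes, Cre over flox (x axis; bars, standard error, n = 3 libraries each), grouped by role down the page, with filled red or blue points for genes past an adjusted p of 0.05 and a grey bar at each group's median. All points but Pold3 lie right of 0, from 0.12 for Rfc2 to 1.995 for Clspn, and the clamp and loader genes have the lowest group median, 0.37.

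Totals ranged from 37273142 to 41006722 counts. Bche, the gene named as deleted in hepatocytes, had few reads in these cells, with 15, 8 and 2 counts in Cre, against 17, 6 and 21 counts in flox. The 51 genes took 0.302%, 0.268% and 0.200% of all counts in Cre 1, 2 and 3, against 0.136%, 0.109% and 0.136% in flox 1, 2 and 3. Of 14 stellate and myofibroblast markers 2 rose (Pdgfra and Hand2), and the list summed to 1539 to 2481 CPM (counts scaled to the library's size) in Cre and 810 to 2664 CPM in flox. Lrat, the defining retinol enzyme of stellate cells, was low throughout, at 0.169 to 1.03 CPM in Cre and 0.124 to 2.49 CPM in flox. The libraries also held macrophage transcripts, and 13 of 14 macrophage markers were lower in Cre, the list summing to 2516, 2473 and 2939 CPM in Cre against 17931, 22752 and 8119 CPM in flox. In each flox library that sum was above the stellate and myofibroblast sum, which was 2664, 1304 and 810 CPM in flox 1, 2 and 3. In Cre 1, 2 and 3 the stellate and myofibroblast sum was 1539, 2481 and 2300 CPM, below the macrophage sum in Cre 1 and Cre 3. Within flox, flox 3 had the lowest macrophage sum. The mean log2 level of the replication genes was 4.33, 4.03 and 4.15 in flox 1, 2 and 3. Mesothelial markers, 0 of 8 called by edgeR and 5 higher at an unadjusted p below 0.05, summed to 706, 824 and 202 CPM in Cre and 261, 176 and 237 CPM in flox. Cre 3 was the lowest Cre library for all 8 of them, as it was for 50 of the 51 replication genes. In Cre 3 the 51 genes stood at a median of 1.48 times their flox mean, against 0.99 over all genes. Endothelial markers summed to 1882, 2999 and 2191 CPM in Cre and 1447, 1175 and 3599 CPM in flox, with 1 of 8 lower (Clec4g). Of 8 hepatocyte and 9 tested lymphocyte markers 0 were called by edgeR, and 3 of each list were lower at an unadjusted p below 0.05. For all these marker lists, the edgeR shares over all genes tested were 6.35% called higher and 8.94% called lower. At an unadjusted p below 0.05 they were 16.4% higher and 18.4% lower. Neutrophil markers summed to 35.2, 15.2 and 51.9 CPM in Cre and 121, 142 and 90.05 CPM in flox, mostly from Csf3r, which was lower in Cre at -1.86 ± 0.43 (adjusted p = 0.0383), while Ly6g and Ngp were at 0 counts throughout. The part of these cell types in the results was not tested, and in bulk libraries fewer cells of a type and less RNA per cell cannot be told apart.

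**Figure D3:**
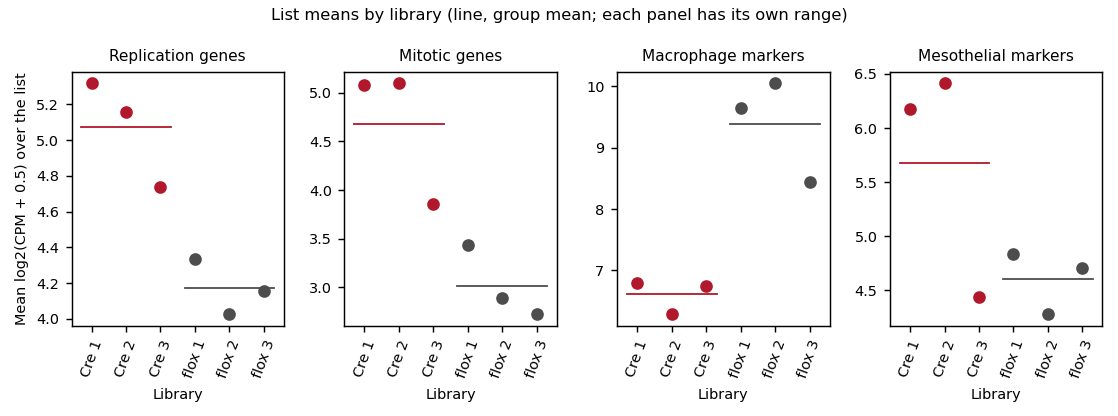
Mean log2(CPM + 0.5) over the 51 replication genes, 15 mitotic genes, 14 macrophage markers and 8 mesothelial markers in each library (points; line, group mean), Cre left of flox, each panel with its own y range. The replication and mitotic means lie above every flox library in all 3 Cre libraries and are lowest within Cre in Cre 3. The mesothelial mean is also lowest within Cre in Cre 3, at 4.44, between the flox values of 4.28 and 4.83.

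Below, values of a gene are TMM-normalised CPM, given for libraries 1, 2 and 3 of each group in that order, and fold changes are log2, Cre over flox, ± the standard error (n = 3 each). Of the 5 licensing genes 3 rose, with a group median of 1.14. Orc1, the largest origin recognition subunit (chromosome 4, 108579423 to 108614833, + strand, GRCm38), had 9.06, 7.84 and 5.55 CPM in Cre, against 2.47, 2.16 and 1.94 CPM in flox, a change of 1.77 ± 0.27 (adjusted p = 0.0237). Every Cre library was more than 2 times above every flox library, although Orc1 had the lowest flox level of the 51, by CPM and by FPKM. In Orc1, 10.8% of the exon bases overlap the antisense gene Gm12743. Orc6, the smallest subunit of the complex, had 32.7, 34.5 and 27.4 CPM in Cre, against 14.8, 9.801 and 18.3 CPM in flox, a change of 1.14 ± 0.24 (adjusted p = 0.0309). Cdc6, the ATPase that joins the complex to load the helicase, had 27.7, 25.6 and 15.7 CPM in Cre, against 11.5, 5.52 and 7.34 CPM in flox, a change of 1.501 ± 0.34 (adjusted p = 0.0347). Both groups spread widely for Cdc6, and Cre 3 stood only a little above flox 1. Cdt1, which brings the helicase to the origin, did not pass at 0.61 ± 0.17 (adjusted p = 0.0540), and its inhibitor geminin (Gmnn) gave 0.61 ± 0.39 (adjusted p = 0.306) with overlapping groups. The Cdt1 to Gmnn ratio of levels per length (FPKM) was 3.52, 3.55 and 5.79 in Cre, against 3.30, 3.899 and 5.59 in flox, so the groups overlapped.

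The helicase core was the largest role group in which every gene rose, 6 of 6. Mcm2 had 121, 96.5 and 86 CPM in Cre, against 55.04, 39.3 and 53.7 CPM in flox, a change of 1.04 ± 0.19 (adjusted p = 0.0250). Mcm3 had 147, 143 and 123 CPM in Cre, against 88.8, 73.2 and 94.2 CPM in flox, the smallest change of the ring at 0.69 ± 0.13 (adjusted p = 0.0267). Mcm4 had 126, 118 and 91.2 CPM in Cre, against 53.3, 39.9 and 45.99 CPM in flox, a change of 1.27 ± 0.17 (adjusted p = 0.0237). For these 3 subunits, which form the ring with the 3 that follow, every Cre library stood above every flox library. Mcm5 (chromosome 8, 75109569 to 75128439, + strand) had 107, 94.1 and 66.9 CPM in Cre, against 42.3, 28.9 and 36.7 CPM in flox, the largest change of the ring at 1.32 ± 0.22 (adjusted p = 0.0241). Mcm6 (chromosome 1, 128331590 to 128359664, - strand), whose window above holds 3 matches, had 175, 159 and 124 CPM in Cre, against 89.6, 64.2 and 87.5 CPM in flox, a change of 0.92 ± 0.18 (adjusted p = 0.0278). Mcm7 had 133, 102 and 92.6 CPM in Cre, against 54.7, 38.97 and 60.6 CPM in flox, a change of 1.09 ± 0.21 (adjusted p = 0.0267). Flox 2 was the lowest of all 6 libraries and Cre 1 the highest for each of the 6 subunits. The ring holds one copy of each protein, but the transcripts were not level: by FPKM, Mcm3 was the highest and Mcm5 the lowest of the 6 in every library. The Mcm3 to Mcm5 ratio was 1.55, 1.72 and 2.09 in Cre, against 2.38, 2.88 and 2.91 in flox, so the transcript levels lay closer together in all 3 Cre libraries. Ratios are given without a test, since 3 against 3 libraries allow an exact permutation p of 0.10 at the lowest.

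**Figure D4:**
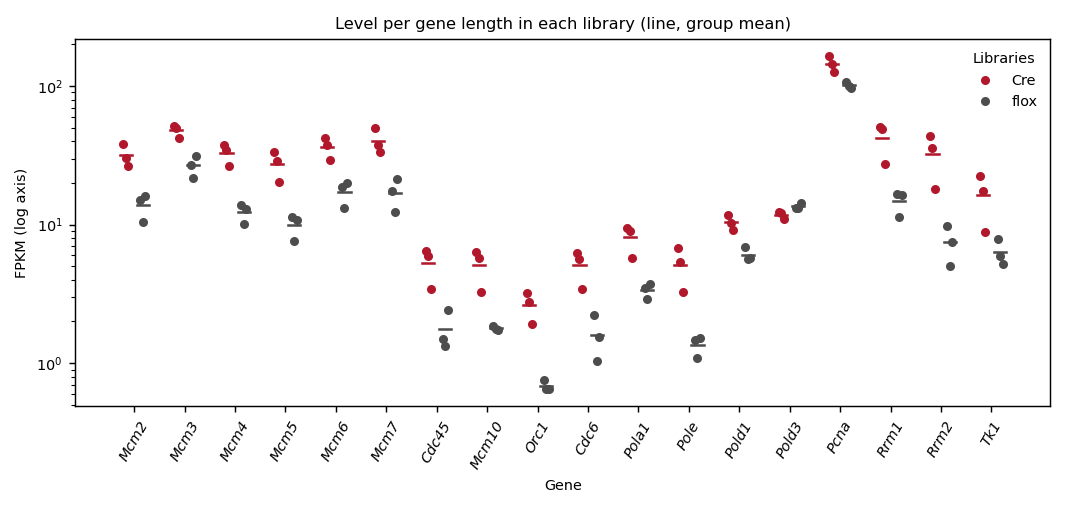
FPKM (log y axis) of 18 replication genes in each library (points; line, group mean), Cre left of flox. Among Mcm2 to Mcm7, Mcm3 is on top and Mcm5 at the bottom in every library, with Mcm10 below them. Pcna is the highest of the genes drawn, Orc1 the lowest, and Pold3 is the one with Cre below flox.

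Of the 6 genes that activate the helicase, 3 rose. Cdc45, which binds the loaded ring to form the running helicase, had 21.6, 20.2 and 11.9 CPM in Cre, against 5.83, 5.32 and 8.66 CPM in flox, a change of 1.44 ± 0.30 (adjusted p = 0.0305). Mcm10, which helps to start unwinding, had 24.4, 22.2 and 12.9 CPM in Cre, against 8.25, 8.02 and 7.04 CPM in flox, a change of 1.35 ± 0.26 (adjusted p = 0.0264). Both had Cre 3 as the lowest Cre library, still above each flox library. Gins2, a subunit of the GINS ring, had 16.1, 13.4 and 11.9 CPM in Cre, against 8.404, 5.37 and 5.85 CPM in flox, a change of 1.08 ± 0.23 (adjusted p = 0.0330). Of its 4097 annotated exon bases, 67.3% overlap Gse1 on the opposite strand. The length behind its FPKM was shorter, 1038 bases, and whether reads of Gse1 were counted with it is not known. The other 3 GINS genes did not pass, at 0.65 ± 0.21 (adjusted p = 0.0832) for Gins3, 0.47 ± 0.39 (adjusted p = 0.427) for Gins1 and 0.21 ± 0.15 (adjusted p = 0.370) for Gins4, the last 2 with overlapping groups. The 4 GINS genes code for one complex, and their changes ran over a range of 0.21 to 1.08.

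Polymerase alpha with primase lays down the RNA and DNA primers. Its catalytic subunits both rose: Pola1 had 49.4, 47.3 and 31.1 CPM in Cre, against 20.9, 18.05 and 20.6 CPM in flox, a change of 1.100 ± 0.20 (adjusted p = 0.0250), and Prim1, the primase, had 25.2, 24.3 and 16.2 CPM in Cre, against 10.3, 8.45 and 10.5 CPM in flox, a change of 1.17 ± 0.21 (adjusted p = 0.0250). The regulatory partners did not pass, at 0.22 ± 0.16 (adjusted p = 0.371) for Pola2 with overlapping groups and 0.66 ± 0.19 (adjusted p = 0.0605) for Prim2.

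Pole and Pole2 belong to polymerase epsilon, which copies the leading strand, and Pold1 to Pold3 to polymerase delta, which copies the lagging strand. All 5 passed, 4 higher and 1 lower. Pole, the catalytic subunit (chromosome 5, 110286306 to 110337474, + strand), had 45.4, 35.96 and 22.3 CPM in Cre, against 11.3, 8.65 and 10.7 CPM in flox, a change of 1.76 ± 0.27 (adjusted p = 0.0237). The lowest Cre library was about 2 times the highest flox library, and Pole2, its second subunit, had 11.99, 11.3 and 9.51 CPM in Cre, against 7.41, 6.44 and 6.74 CPM in flox, a change of 0.67 ± 0.18 (adjusted p = 0.0484). Pold1, the catalytic subunit of delta, had 51.3, 45.3 and 41.2 CPM in Cre, against 34.3, 28.9 and 26.4 CPM in flox, a change of 0.62 ± 0.14 (adjusted p = 0.0379). Pold2, its second subunit, had 26.9, 24.98 and 22.8 CPM in Cre, against 15.2, 13.5 and 18.2 CPM in flox, a change of 0.67 ± 0.16 (adjusted p = 0.0383). Pold3, an accessory subunit that also serves repair synthesis at broken forks (chromosome 7, 100082111 to 100121565, - strand), had 51.6, 51.7 and 47.1 CPM in Cre, against 63.4, 65.2 and 63.8 CPM in flox, a change of -0.36 ± 0.09 (adjusted p = 0.0464). Its flox libraries were nearly level and all above Cre. The call for Pold3 held in 3 of 10 other settings, with changes of -0.36 to -0.18 and an adjusted p of up to 0.236.

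The clamp and its loader had the lowest median change of the 11 role groups, 0.37, and 1 of 6 genes rose. Pcna, the ring that tethers polymerases to DNA, had the highest FPKM of the 51 genes, 145 ± 19.4 in Cre and 101 ± 5.12 in flox (SD, n = 3 each). Pcna had 194, 173 and 153 CPM in Cre, against 145, 139.9 and 121 CPM in flox, and its change of 0.36 ± 0.13 (adjusted p = 0.105) did not pass although the groups did not overlap. Its level relative to Mcm2, by FPKM, was 4.28, 4.79 and 4.76 in Cre, against 7.04, 9.53 and 6.03 in flox, with no overlap. Annotated pseudogenes of Pcna (Pcna-ps1 and Pcna-ps2) could share reads with it. Rfc5, a small subunit of the clamp loader, was the gene that rose, with 29.1, 26.8 and 15.7 CPM in Cre, against 12.2, 12.7 and 10.5 CPM in flox and a change of 1.02 ± 0.25 (adjusted p = 0.0426). The other loader genes gave 0.34 ± 0.14 (adjusted p = 0.140) for Rfc1, 0.12 ± 0.13 (adjusted p = 0.526) for Rfc2, 0.37 ± 0.15 (adjusted p = 0.138) for Rfc3 and 0.91 ± 0.24 (adjusted p = 0.0503) for Rfc4, of which Rfc1 and Rfc2 had overlapping groups. Exons of Rfc2 overlap those of Lat2 over 15.1% of their bases, those of Rfc4 overlap Eif4a2 over 12.7%, and those of Rfc5 overlap Wsb2 over 10.7%.

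Replication protein A coats single-stranded DNA, and none of its 3 genes passed, by edgeR, although all 3 were above flox in every Cre library and had an unadjusted p below 0.05. DESeq2 called all 3, at an adjusted p of 0.0239 to 0.0255. Of the other genes that edgeR did not call, DESeq2 called Cdt1, Gins3, Prim2, Rfc4, Dna2 and Tk1 higher, at an adjusted p of 0.00589 to 0.0195. Rpa1, the large subunit, had 134, 119 and 96.2 CPM in Cre, against 88.1, 68.9 and 79.8 CPM in flox, a change of 0.56 ± 0.16 (adjusted p = 0.0576). Rpa2 gave 0.72 ± 0.22 (adjusted p = 0.0709) and Rpa3 0.73 ± 0.23 (adjusted p = 0.0780).

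Of the 4 genes that mature Okazaki fragments, the short pieces of the lagging strand, 2 rose. Lig1, the ligase that seals them, had 61.3, 57.6 and 44.1 CPM in Cre, against 26.2, 22.7 and 27.7 CPM in flox, a change of 1.09 ± 0.16 (adjusted p = 0.0237). Fen1, the nuclease that trims the flaps between them, had 58.5, 51.05 and 34.8 CPM in Cre, against 28.7, 21.6 and 26.04 CPM in flox, a change of 0.92 ± 0.22 (adjusted p = 0.0386), with 78.8% of its exon bases overlapped by Gm10143 on the opposite strand. Dna2, a second flap nuclease, gave 0.72 ± 0.20 (adjusted p = 0.0596) and was the one gene of the 51 in which Cre 3 was not the lowest Cre library. Rnaseh2a, the catalytic subunit of the enzyme that removes RNA primers, gave 0.15 ± 0.17 (adjusted p = 0.562) with overlapping groups.

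Clspn, or claspin, passes the signal of stalled forks to the checkpoint kinase Chk1 and showed the largest change of the 51 genes. Clspn (chromosome 4, 126556935 to 126593903, + strand) had 27.9, 24.5 and 12.1 CPM in Cre, against 6.51, 4.8 and 4.88 CPM in flox, a change of 1.995 ± 0.34 (adjusted p = 0.0244). Its flox values lay close together, and Cre 3 was at 0.46 times the mean of Cre 1 and 2. Tipin, of the fork protection pair, had 32.8, 31.5 and 22.9 CPM in Cre, against 15.1, 11.7 and 14.9 CPM in flox, a change of 1.06 ± 0.19 (adjusted p = 0.0250), while its partner Timeless gave 0.51 ± 0.20 (adjusted p = 0.119) with overlapping groups. Wdhd1, which ties the helicase to polymerase alpha, gave 0.69 ± 0.30 (adjusted p = 0.161). Its groups did not overlap, but Cre 3 and flox 1 were nearly level, at 15.14 and 15.13 CPM.

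The 3 genes that restore chromatin behind the fork all rose, with a median of 1.65, the highest of the 11 role groups. Chaf1a, the large subunit of the histone chaperone CAF-1, had 49.8, 47.7 and 28.3 CPM in Cre, against 15.9, 9.6 and 14.3 CPM in flox, a change of 1.66 ± 0.28 (adjusted p = 0.0244). Of its 8854 annotated exon bases, 52.5% overlap Ubxn6 on the opposite strand, and the length behind its FPKM was shorter, 3308 bases. Chaf1b, its partner, had 39.4, 36.5 and 28.4 CPM in Cre, against 15.2, 14.7 and 20.5 CPM in flox, a change of 1.05 ± 0.19 (adjusted p = 0.0252). Uhrf1, which brings the maintenance methyltransferase Dnmt1 to newly copied DNA, had 113, 97 and 71.9 CPM in Cre, against 38.9, 21.8 and 29.2 CPM in flox, a change of 1.65 ± 0.26 (adjusted p = 0.0237). In each of the 3 genes the lowest Cre library lay above the highest flox library.

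Nucleotide supply came next, with 4 of 5 genes higher and a median of 1.44. Rrm1, the large subunit of ribonucleotide reductase, had 189, 184 and 106 CPM in Cre, against 71.1, 50.01 and 64.6 CPM in flox, a change of 1.37 ± 0.25 (adjusted p = 0.0255). Rrm2, the small subunit made in S phase (chromosome 12, 24708241 to 24714146, + strand), had 88.3, 73.4 and 38.1 CPM in Cre, against 23.1, 12.2 and 16.1 CPM in flox, a change of 1.96 ± 0.37 (adjusted p = 0.0256). Cre 3 held 0.47 times the mean Rrm2 of Cre 1 and 2 and still exceeded each flox library. Tyms, which makes thymidylate, had 43.3, 40.5 and 23.02 CPM in Cre, against 14.5, 9.57 and 15.1 CPM in flox, a change of 1.45 ± 0.29 (adjusted p = 0.0284), and an annotated pseudogene, Tyms-ps, could share its reads. Dut, which removes dUTP, had 37.02, 23.8 and 22.01 CPM in Cre, against 12.2, 9.57 and 8.86 CPM in flox, a change of 1.44 ± 0.25 (adjusted p = 0.0246). Tk1, the cytosolic thymidine kinase of the salvage route, had 39.4, 31.2 and 16.2 CPM in Cre, against 16.1, 12.4 and 9.73 CPM in flox, and its change of 1.18 ± 0.35 (adjusted p = 0.0660) missed the threshold. Its groups did not overlap, but Cre 3 and flox 1 were nearly level, at 16.17 and 16.12 CPM.

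The order of the libraries recurred from gene to gene. Cre 3 was the lowest Cre library for 50 of the 51 genes, against 5526 of all 14795 genes tested, and Cre 1 the highest for 47, against 4480 of all. Cre 3 stood at a median of 0.74 times the mean of Cre 1 and Cre 2, from 0.46 for Tk1 to 0.91 for Pold3. Within flox, flox 1 was the highest for 33 genes, against 3560 of all, and flox 2 the lowest for 33, against 4803 of all. By role, the ratio of Cre 3 to the other Cre libraries was lowest for nucleotide supply, at a median of 0.55, and highest for polymerases epsilon and delta, at 0.85.

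**Figure D5:**
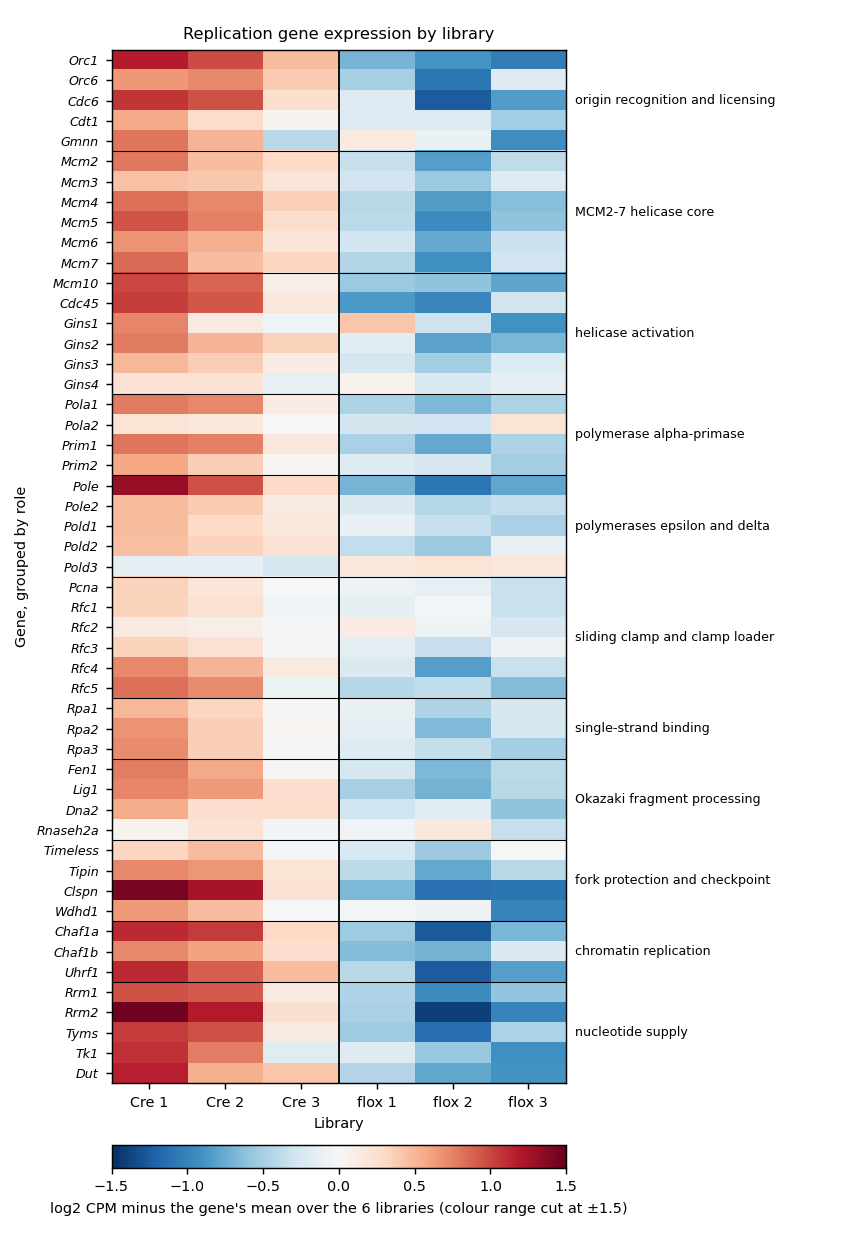
Log2 CPM of each of the 51 genes in each library (columns, Cre left of flox) minus the gene's mean over the 6 libraries, grouped by role down the page, with colours cut at 1.5 in either direction. Cre 1 and Cre 2 are red almost throughout and Cre 3 paler, being the lowest Cre library in 50 of the 51 genes, the flox columns are mostly blue, and Pold3 runs the other way.

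Of 46 further genes of replication and nucleotide synthesis, 17 rose (against 6.35% of all genes tested) and 3 fell (against 8.94% of all), with a median of 0.42. Mtbp, a partner of the origin-firing factor Ticrr, had 33.7, 34.3 and 30.7 CPM in Cre, against 14.3, 13.5 and 16.3 CPM in flox, a change of 1.16 ± 0.13 (adjusted p = 0.0226). Topbp1, which helps to fire origins, changed by 1.01 ± 0.18 (adjusted p = 0.0250), Atad5, which unloads Pcna, by 1.53 ± 0.27 (adjusted p = 0.0250), and Shmt1, a folate enzyme that feeds thymidylate synthesis, by 1.22 ± 0.22 (adjusted p = 0.0250). The 3 that fell, a smaller share than over all genes, act on deoxynucleotide pools. Tk2, the mitochondrial thymidine kinase, had 14.7, 14.9 and 16.5 CPM in Cre, against 40.8, 45.1 and 29.1 CPM in flox, a change of -1.31 ± 0.18 (adjusted p = 0.0237). Samhd1, which breaks down deoxynucleotides and is abundant in myeloid cells, had 268, 260.1 and 256 CPM in Cre, against 589, 615 and 414 CPM in flox, a change of -1.05 ± 0.17 (adjusted p = 0.0241). Dck, the deoxycytidine kinase, named after its values were seen, had 53.6, 54.04 and 41.2 CPM in Cre, against 158, 192 and 81.6 CPM in flox, a change of -1.54 ± 0.31 (adjusted p = 0.0289). In all 3, flox 3 was the lowest flox library, as it was for the macrophage sum, and the part of macrophages in their change was not tested. Within a library, the Tk1 to Tk2 ratio of FPKM was 4.18, 3.27 and 1.53 in Cre, against 0.618, 0.429 and 0.524 in flox. The S phase subunit Rrm2 over its damage-induced counterpart Rrm2b gave 12.0, 12.1 and 5.91 in Cre, against 3.38, 1.33 and 2.14 in flox. Neither ratio overlapped between groups.

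Among 13 genes of the E2F and pocket protein families 4 rose (against 6.35% of all genes tested), and the median was 0.24. None fell by edgeR (against 8.94% of all). At an unadjusted p below 0.05, 6 of the 13 passed, against 5150 of all 14795 genes, and Rb1 alone of the 6 was lower. DESeq2 called 1 of the 13 lower, against 2247 of 17001 genes. E2f8, a repressor made in S phase, had 23.7, 19.96 and 10.8 CPM in Cre, against 5.88, 3.65 and 4.23 CPM in flox, a change of 1.98 ± 0.34 (adjusted p = 0.0248), with 11.2% of its exon bases overlapped by Gm2788. The DNA-binding partners Tfdp1 and Tfdp2 changed by 0.86 ± 0.15 (adjusted p = 0.0250) and 1.15 ± 0.21 (adjusted p = 0.0250), and the pocket protein gene Rbl1 by 0.39 ± 0.10 (adjusted p = 0.0447). E2f1, the classic activator, had 30.1, 23.1 and 17.3 CPM in Cre, against 26.5, 26.7 and 13.3 CPM in flox, and its change of 0.09 ± 0.32 (adjusted p = 0.875) did not pass. Nor did the activators E2f2, at 1.09 ± 0.51 (adjusted p = 0.183) with overlapping groups, and E2f3, at 0.19 ± 0.10 (adjusted p = 0.247). For E2f3 every Cre library lay above every flox library.

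All 15 mitotic genes rose (against 6.35% of all genes tested), with a median change of 1.73. Cre 3 was again the lowest Cre library in each of them (against 5526 of all 14795 genes), at a median of 0.43 times the mean of Cre 1 and Cre 2. Mki67, the proliferation marker Ki-67, had 152, 134 and 69.1 CPM in Cre, against 45.2, 38.6 and 27.7 CPM in flox, a change of 1.67 ± 0.33 (adjusted p = 0.0267). Ccna2, the cyclin of S phase and mitotic entry, changed by 1.98 ± 0.33 (adjusted p = 0.0241), Bub1, of the spindle checkpoint, by 2.299 ± 0.46 (adjusted p = 0.0276), and Cdk1, the mitotic kinase, by 1.85 ± 0.36 (adjusted p = 0.0267). Of the 15, limma-voom called 2 (3.91% of all genes higher), whereas DESeq2 called 15 with each library left out in turn (5.11% to 18.8% of all). Whether mitotic and replication genes differ in their change was not tested.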

How the data were processed

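RNA sequencing of 6 libraries was analysed from the processed tables. Per the labels' protocols, libraries were made from 1.3 µg of RNA with a SMARTER kit. The authors deposited raw counts by gene symbol with a column for each library, and FPKM values, which are counts scaled by library total and by a single length per gene (checked on 11560 genes above 50 counts, of which 0 departed by over 1e-06). The submitters' processing notes list GRCm38, mm10 and hg38 without saying their use. Which aligner, counter, annotation or strand setting was used is not given in these sources. FPKM therefore carry the authors' lengths, which were 0.241 to 1.81 times the GENCODE M21 exon length of the 51 genes (median 0.793), and levels of different genes are comparable only within that limit. Gene positions and overlaps are from GENCODE M21, on GRCm38, and promoter windows from RefSeq, GRCm38.p6.

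The test was edgeR 4.0.16 (R 4.3.3): filterByExpr (minimum count 10, minimum total 15) kept 14795 genes and removed 8171, TMM factors were 1.07, 1.06 and 1.04 for Cre 1 to 3 and 0.929, 0.905 and 1.01 for flox 1 to 3, and a two-sided quasi-likelihood F-test without covariates compared the groups, adjusted by Benjamini-Hochberg over all genes tested, with calls below 0.05. Standard errors were taken as the size of the log2 change over the square root of F. Totals of 37273142 to 41006722 counts make 3 counts worth 0.0732 to 0.0805 CPM. List means use log2(CPM + 0.5). Alternatives were RLE factors, library totals, DESeq2 1.42.0, limma-voom and limma-trend on FPKM (limma 3.58.1), other filters and thresholds, a replicate block and each library left out, and, added after seeing the data, DESeq2 with each library left out. The code was tested on simulated data. Every pair of libraries within a group differed beyond sampling noise. The 51 genes and the lists were chosen with earlier results of these data known. Values in every library are given for each of the 51 past the threshold and for the lowest p in each role group. The text names at most 6 genes of each further list by lowest p, with E2f1, E2f2, E2f3, Mki67 and the genes of ratios beside them.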

Additional observations from a re-analysis of the deposited data

How the results depend on the processing

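No gene of the 51 changed sign under any alternative, and the median change kept within the replicate spread in each, from 0.81 to 1.13 with 1 library left out (edgeR and DESeq2). With 1 library left out, the number higher ranged from 0 to 33 in edgeR and 25 to 40 in DESeq2. The DESeq2 share higher over all genes ranged from 5.11% to 18.8%. The number lower ranged from 0 to 1 in both tools. Without Cre 1, Cre 2, flox 1 or flox 2 edgeR called 0 of the 51 and of all genes. Without Cre 3 it called 31 higher, with 771 of 15288 genes higher in all. Without flox 3 it called 33 higher, with 2447 of 15296 genes higher in all. On all 6 libraries, 940 of 14795 genes were higher, so the rise without flox 3 was not confined to the 51. In DESeq2, 25 of the 30 risers kept their call with each library left out in turn. The replicate block, log2(FPKM + 1) and an adjusted p below 0.01 gave 0 higher and 0 lower of the 51, with 43 and 46 higher at an unadjusted p below 0.05 under the first 2 (2098 of 14795 and 3680 of 21617 genes in all). The same 3 settings gave 0 higher and 0 lower among further replication genes, 0 higher of the E2F list and 0 higher of the mitotic list. Same-numbered libraries did not deviate together (correlations of 0.001, -0.138 and -0.069), so the numbers are not taken to pair libraries. Pold3 was not called (0 lower) with library totals, limma-voom, no count filter, log2(FPKM + 0.1) or a mean FPKM of at least 1. Library totals moved the median of all genes by 0.16. On log2(FPKM + 0.1), 7 further replication, 2 E2F and 4 mitotic genes were higher (2.10% of all genes), and limma-voom called 2 mitotic genes (3.91% of all higher). DESeq2 and an adjusted p below 0.1 each gave 5 further replication genes and 1 E2F gene lower. With 1 library left out, edgeR and DESeq2 gave 0 to 22 and 12 to 25 further replication genes higher, 0 to 6 and 3 to 6 lower, 0 to 4 and 3 to 5 E2F genes higher, 0 to 1 and 0 to 2 lower, and 0 to 15 and 15 mitotic genes higher. The cause of these changes was not tested. The lowest count of the 51 genes in a library was 75, for Orc1, and the effect of depth was not tested.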
